A study of Mus musculus with 60 samples.

Results

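Imprinted genes are expressed from only the maternal or only the paternal copy, and the 40 described here lie outside the Peg10 locus. They were chosen as a list of gene names from 31355 protein-coding and long non-coding genes of the GENCODE M21 annotation of the mouse genome build mm10. The genes fall into 6 named imprinted clusters and a remainder. The Kcnq1-Igf2 cluster holds 10 of the genes, Snrpn 5, Dlk1-Meg3 4, Igf2r 3, Peg3 3 and Gnas 1. The other 14 lie outside these clusters, some of them side by side, as Mest, Copg2 and Klf14 on chromosome 6.

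The study asked how arginine-to-cysteine changes in the tail of histone H3 alter the repressive mark H3K27me3. Lentivirus had brought a transgene for H3.1 with HA and FLAG tags, driven by the EF1 promoter and kept under puromycin selection, into C3H 10T1/2, a clonal mesenchymal progenitor line of the mouse. The transgene encoded wild-type H3 (H3WT) or H3 with cysteine in place of arginine 2, 8, 17 or 26 (H3R2C, H3R8C, H3R17C and H3R26C), and all 5 lines kept their own unmutated H3 genes. CUT&RUN, in which a nuclease guided by an antibody cuts out the bound DNA for sequencing, was run on 3 labelled replicates of each line with antibodies against H3K27me3 and against the HA tag of the transgenic histone. H3WT was the control for the 4 mutants.

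In each group the peak lists of 2 of the 3 labelled replicates were identical and were counted as 1. The study gives unlike read totals for such replicates, so it is not known whether the shared list was called on merged reads or was deposited for both. This left 2 independent H3K27me3 lists for H3WT, H3R2C, H3R8C and H3R26C, and 1 for H3R17C, for which replicate 1 was left out because the name of its list gave another mark. Values are given below for the shared list first and then for replicate 3. The lists held 20077 to 24598 H3K27me3 peaks and covered between 64.2 Mb, in H3R26C replicate 3, and 130.4 Mb, in the shared H3R2C list. The lowest total signal of a peak, the level a block had to pass, ran from 3400 to 8050, and the lists of H3R2C replicate 3 and H3R26C replicate 3 were the smallest in summed signal. Signal was therefore scaled. The coverage summed over the peaks of a gene and 1 kb on each side was divided in each list by its median over the 2697 genes with signal in all 8 lists of H3WT, H3R2C, H3R8C and H3R26C, so that a scaled signal of 1 is the level of a typical marked gene. Of 10 genes known as Polycomb targets, 8 had an H3K27me3 peak over the start site in both H3WT lists, against 0 of 10 housekeeping genes and 0 of 10 mesenchymal genes such as Col1a1 and Vim. The peaks do not separate the maternal from the paternal copy, so a peak below can lie on either copy or on both.

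Imprinting rests on DNA methylation that is set in the egg or the sperm at control regions, and each control region governs a cluster of genes. At several clusters a long non-coding RNA made from the paternal copy, such as Kcnq1ot1 or Airn, silences neighbouring genes over long distances, and Polycomb repressive complex 2, which writes H3K27me3, takes part in that silencing, best known from the placenta. Polycomb complexes are also known to settle on CpG-rich start sites.

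RefSeq promoter sequences (GRCm38.p6, the assembly behind mm10) were at hand for 32 of the 40 genes, at 49 start sites. The 250 bases before the start are shown in 5′ to 3′ direction for 7 start sites on which the results turn, with each CpG in capitals. The first 4 had an H3K27me3 peak within 1 kb in at least 1 H3WT list and in neither H3R2C list, the fifth carried a peak over its start in 1 H3R2C list and no H3WT list, and the last 2 kept a peak in every list.
Igf2, a start inside the gene, chr7:142661272-142661521, minus strand: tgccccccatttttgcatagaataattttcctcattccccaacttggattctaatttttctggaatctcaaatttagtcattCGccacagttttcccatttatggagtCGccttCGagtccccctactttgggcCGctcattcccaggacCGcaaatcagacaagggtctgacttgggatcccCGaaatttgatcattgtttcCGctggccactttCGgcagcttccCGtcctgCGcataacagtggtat
Sfmbt2, first start, chr2:10370201-10370450, plus strand: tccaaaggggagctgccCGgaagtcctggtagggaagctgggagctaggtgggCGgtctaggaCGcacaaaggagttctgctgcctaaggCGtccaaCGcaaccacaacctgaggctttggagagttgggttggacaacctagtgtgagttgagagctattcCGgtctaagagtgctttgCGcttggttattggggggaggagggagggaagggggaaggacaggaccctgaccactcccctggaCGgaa
Gnas, first start, chr2:174284070-174284319, plus strand: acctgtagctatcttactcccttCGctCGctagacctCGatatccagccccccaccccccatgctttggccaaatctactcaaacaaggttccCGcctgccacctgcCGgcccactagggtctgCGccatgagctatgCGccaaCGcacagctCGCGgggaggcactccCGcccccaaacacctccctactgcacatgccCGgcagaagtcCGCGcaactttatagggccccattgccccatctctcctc
Zdbf2, start nearest the gene, chr1:63273019-63273268, plus strand: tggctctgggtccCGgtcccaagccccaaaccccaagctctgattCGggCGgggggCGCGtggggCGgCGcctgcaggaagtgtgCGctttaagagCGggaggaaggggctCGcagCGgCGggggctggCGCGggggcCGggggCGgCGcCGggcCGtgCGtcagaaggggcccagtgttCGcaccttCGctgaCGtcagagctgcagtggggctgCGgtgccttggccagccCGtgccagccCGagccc
Slc22a18, chr7:143473539-143473788, plus strand: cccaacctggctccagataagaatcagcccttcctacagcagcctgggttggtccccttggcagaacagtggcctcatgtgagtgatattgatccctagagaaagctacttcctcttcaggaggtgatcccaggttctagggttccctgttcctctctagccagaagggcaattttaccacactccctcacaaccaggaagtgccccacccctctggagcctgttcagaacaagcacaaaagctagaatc
Ascl2, chr7:142969265-142969514, minus strand: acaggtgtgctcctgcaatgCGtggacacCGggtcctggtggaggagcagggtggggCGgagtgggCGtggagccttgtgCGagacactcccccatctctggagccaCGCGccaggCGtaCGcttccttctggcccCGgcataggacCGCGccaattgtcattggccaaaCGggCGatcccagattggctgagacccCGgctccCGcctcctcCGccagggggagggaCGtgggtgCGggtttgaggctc
Slc22a3, chr17:12507705-12507954, minus strand: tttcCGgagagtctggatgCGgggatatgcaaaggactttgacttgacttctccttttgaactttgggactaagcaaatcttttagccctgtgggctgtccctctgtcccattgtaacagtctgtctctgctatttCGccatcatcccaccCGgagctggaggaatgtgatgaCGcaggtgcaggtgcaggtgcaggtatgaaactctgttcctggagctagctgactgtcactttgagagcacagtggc
These stretches held 10, 8, 14, 26, 0, 19 and 5 CpGs in that order, so marked starts ranged from CpG-rich (Zdbf2, Ascl2) to CpG-poor (Slc22a3). Over the whole 300-base windows, which run to 50 bases after the start, the 16 member start sites with an H3K27me3 peak within 1 kb in at least 1 list had a median of 15.0 CpGs, and the 33 without one had 17. The median over all 32851 RefSeq promoters was 7. The marked members were thus not the richer by the median count of CpGs. Their medians of GC content (60.5% against 57.3%) and of observed over expected CpG (0.667 against 0.623) were higher. None of these differences was tested. Windows of a gene can overlap, as at Mest and Gnas, so the counts of windows are not of independent sites. The hexamer TGCCGC, the core of the motif read by the imprinting factor ZFP57 when methylated, was searched on both strands and was found in 3 of the 16 windows, in 10 of the 33, and in 11.6% of all promoters.

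Most of the 40 genes carried no H3K27me3 in these cells. In 24 genes (60%) no list had a peak in the gene or within 1 kb of it, against 75.2% of all annotated genes. H3WT had a peak within 1 kb of the start site in both lists at 8 of the 40 genes, 20.0%, where 8.30% of all genes had one. H3R8C had 11 such genes (8.97% of all genes), H3R26C 9 (7.93% of all genes) and H3R2C 4 (6.68% of all genes), and the single H3R17C list had 10 (8.31% of all genes). Kcnq1, Ascl2 and Slc22a3 had a start-site peak in all 9 lists. Of the 8 starts marked in both H3WT lists, 3 (Igf2, Zdbf2 and Sfmbt2) had no peak in either H3R2C list, where 25.8% of all genes so marked had none. In H3R26C 1 of the 8 (Igf2) had none, beside 8.99% of all genes, and in H3R8C 0 of the 8, beside 4.88%. Of the 29 members with a start-site peak in neither H3WT list, 0 had one in both lists of H3R2C, H3R8C or H3R26C (1.14%, 0.744% and 0.887% of all genes).

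**Figure D1:**
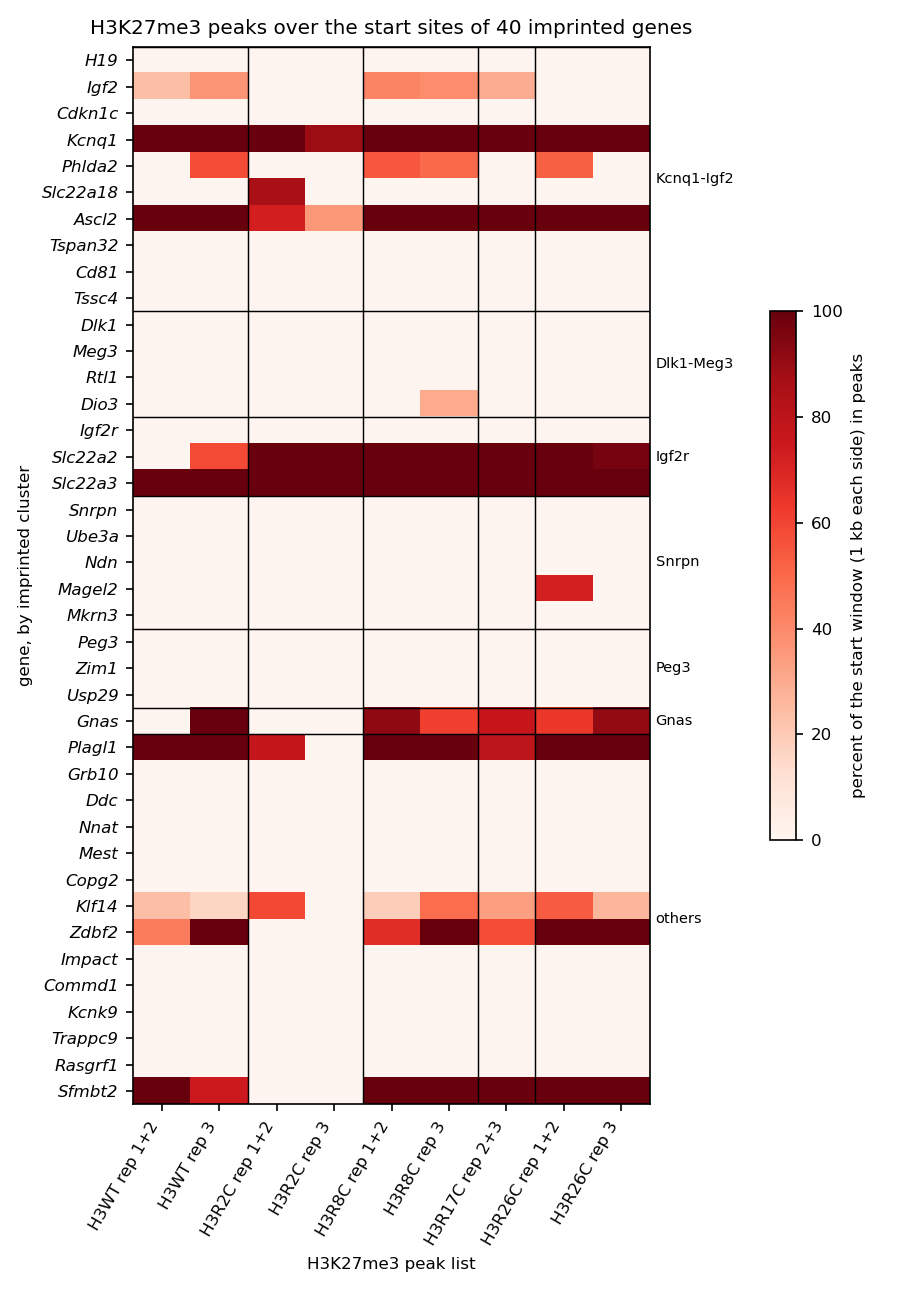
Percent of the window 1 kb on each side of the start site that lay in H3K27me3 peaks, for 40 imprinted genes (rows, by cluster) in 9 peak lists (columns, by line). Igf2, Zdbf2 and Sfmbt2 are covered at least in part in both H3WT lists and empty in both H3R2C lists. Kcnq1, Ascl2 and Slc22a3 are covered at least in part in all 9 lists.

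In the Kcnq1-Igf2 cluster 5 genes were unmarked. H19, a long non-coding RNA, had its nearest peak 4.01 to 38.3 kb from its start, and Cdkn1c, an inhibitor of cyclin-dependent kinases, had it 5.10 to 129.8 kb away. The other 3 were Tspan32, Cd81 and Tssc4, between Ascl2 and Kcnq1. In the Dlk1-Meg3 cluster Dlk1, which codes for a Notch-like ligand, and the retrotransposon-derived Rtl1 were unmarked, and the nearest peak to Dlk1 lay 22.7 to 24 kb away in all lists. Igf2r, a receptor that clears IGF2, had its nearest peak 103 to 181 kb from its start, although its neighbours Slc22a2 and Slc22a3 were marked.

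The Peg3 cluster was the emptiest. Peg3, Zim1 and Usp29 were at least 360.4 kb from any peak and 0% of the cluster interval was covered in the 9 H3K27me3 lists. In the Snrpn cluster, deleted in Prader-Willi and Angelman syndromes, Snrpn, the ubiquitin ligase gene Ube3a, Ndn and Mkrn3 were unmarked. Mkrn3 came closest, with a peak 1.06 to 3.16 kb from its start in each list. The remaining unmarked genes were Ddc, Nnat, Mest, Copg2, Impact, Commd1, Kcnk9, Trappc9 and Rasgrf1. None of these 24 genes could be compared between lines by H3K27me3 signal.

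Of the 16 genes with signal in at least 1 list, 14 passed the filter on low values and were tested with limma among 6212 genes, with p-values adjusted by the Benjamini-Hochberg method over all of them. In H3R2C against H3WT, 7 of these 14 were called, where 36.3% of all tested genes were. Of them 4 were called lower, where 16.4% of all tested genes were, and 3 were called higher, where 19.9% were. The count of 7 fell to 3 without either H3R2C list, and to 4 without H3WT replicate 3 or the shared H3R8C list. Leaving out any 1 list also lowered the share of all tested genes called. This held for each tested line against H3WT and for H3R2C against H3R26C. The H3R2C count was 2 on signal as deposited, without scaling (15.1% of all tested genes), and 3 with a pseudocount of 1 (36.0%). With whole peaks that touch the start window summed, it was 3 of 11 members tested (29.4% of 3800 genes). In H3R26C 2 were called higher (8.19% of all tested genes) and 0 lower (9.08%), and in H3R8C 0 were called (4.07%, with 2.04% lower and 2.03% higher). In H3R8C 3 members had an unadjusted p under 0.05, where 507 of the 6212 genes were lower and 456 higher at that level. The 3 include Grb10, which passed the filter through H3R8C alone and is given no test. The H3R26C count was 1 without H3R26C replicate 3 and 0 without H3WT replicate 3. The 14 had a median log2 difference of -0.23 for H3R2C, 0.01 for H3R26C and 0.24 for H3R8C, and it was 0.00 over all genes in each. A gene reached the test only through the lines in which it had signal, so these counts describe the genes tested and not the 40. All 3 comparisons share the H3WT lists. Between H3R2C and H3R26C 9 of the 14 were called, where 48.5% of all tested genes were, 5 of them lower (22.3%) and 4 higher (26.1%), and 5 were called without H3R26C replicate 3 or either H3R2C list. The log2 differences are on the scale of log2(scaled signal + 0.25), which understates the change of weakly marked genes. Signal below the level of the lowest peak of a list is read as 0, which can enlarge the change of such genes. The p-values measure the spread between lists only.

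**Figure D2:**
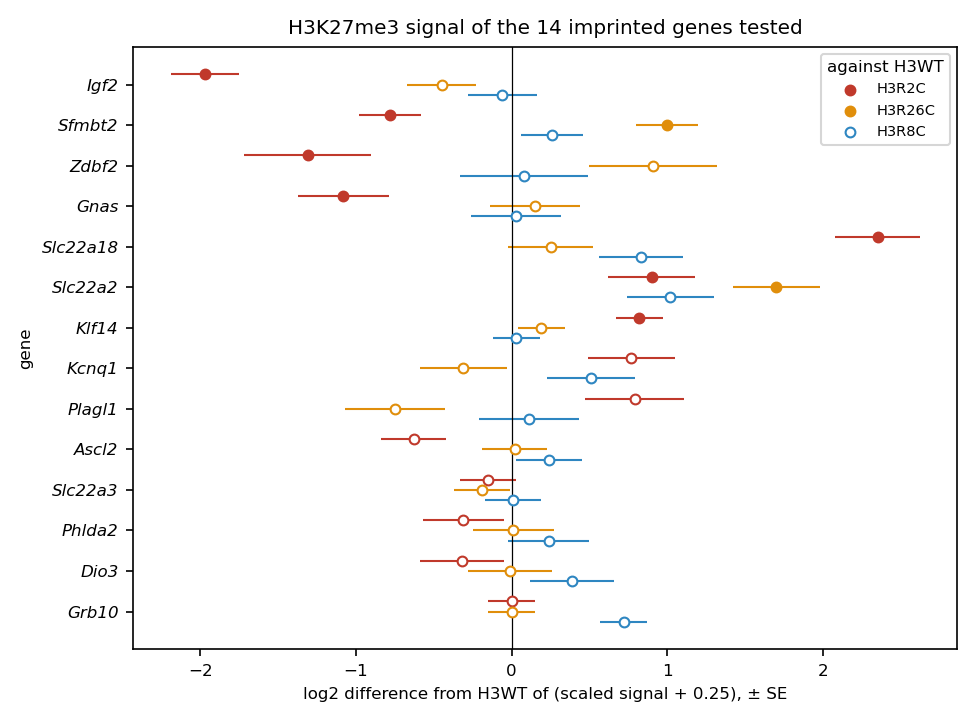
Log2 difference from H3WT in H3K27me3 signal (x axis, with its standard error) for the 14 imprinted genes tested (y axis) in H3R2C, H3R26C and H3R8C. Filled points have an adjusted p under 0.05: 4 genes lie below 0 and 3 above it in H3R2C, 2 above it in H3R26C and none in H3R8C.

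Igf2, the paternally expressed growth factor of the Kcnq1-Igf2 cluster (chr7:142650766-142666816), lost its H3K27me3 peak in H3R2C. Its scaled signal was 0.652 and 0.816 in the H3WT lists, 0.584 and 0.805 in H3R8C, 0.663 in H3R17C, 0.425 and 0.511 in H3R26C and 0 in both H3R2C lists. H3R2C did not overlap any other line. In H3WT a single peak reached from 0.52 to 7.12 kb and from 0.27 to 8.71 kb after the first start site, so it lay in the 5′ part of the gene and over inner start sites, including the one whose sequence is shown above. In H3R2C the nearest peak was 33.9 and 11.8 kb from the first start. The log2 difference from H3WT was -1.97 ± 0.22 (SE, adjusted p = 0.00125), and Igf2 was called lower under all 20 alternative settings (adjusted p 3.78e-07 to 0.0225). The alternatives here and below include a setting that counts identical lists as separate replicates and so takes copies for replicates. The lower end of a range of adjusted p can come from that setting. Because both H3R2C lists were at 0 the size depends on the pseudocount, from -0.79 with 1 to -3.96 with 0.05. A single block at the level of the H3R2C lists would have had a scaled signal of 0.119 and 0.134.

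H3R26C kept a peak in Igf2 but not at its first start. Both H3R26C peaks began further into the gene, at 1.82 and 2.42 kb, and none of the window 1 kb on each side of the start was covered, where the H3WT peaks filled 24.2% and 36.7% of the start window. The part of the gene covered was 38.0% and 24%, against 41.1% and 52.6% in H3WT. The log2 difference of H3R26C from H3WT was -0.45 ± 0.22 (adjusted p = 0.218) and did not pass the test, and that of H3R8C was -0.06 ± 0.22 (adjusted p = 1.00). With H3R2C and H3R26C pooled and set against H3WT and H3R8C, 4 lists against 4, Igf2 differed by -1.18 ± 0.42 (adjusted p = 0.201) with no overlap between the sides. In that comparison 0 of the 14 genes and 1.43% of all genes (0.741% lower and 0.692% higher) were called. An unadjusted p under 0.05 was found for 1 of the 14, and for 514 lower and 564 higher genes of all 6212.

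Sfmbt2, a Polycomb-group gene of paternal expression (chr2:10370510-10595253), had a narrow peak over its start in every list outside H3R2C. The peak was 3.60 and 2.25 kb wide in H3WT, 3.35 and 4.20 kb in H3R8C and 4.35 kb in H3R17C. Scaled signal was 0.209 and 0.154 in H3WT, 0.282 and 0.248 in H3R8C, 0.330 in H3R17C, 0.531 and 0.696 in H3R26C and 0 in both H3R2C lists, where the nearest peak was 482 and 934 kb away. The gene thus had less signal than H3WT in H3R2C and more in H3R26C, with no overlap. A single block at the level of the H3R2C lists would have had a scaled signal of 0.119 and 0.134. This is not far below H3WT, so a partial fall could also read as 0. In H3R2C the log2 difference was -0.78 ± 0.20 (adjusted p = 0.0234). The call was lost under 7 of 20 alternatives, among them leaving out H3R2C replicate 3 (adjusted p = 0.0646), the shared H3R2C list (0.0671) or the shared H3WT list (0.0828). In H3R26C it was 1.00 ± 0.20 (adjusted p = 0.0201), where a second peak at 2.69 to 5.29 kb and 2.74 to 4.84 kb was added, and that call was kept under 15 of 20 alternatives and lost without H3WT replicate 3 (adjusted p = 0.0758). The direct difference between H3R2C and H3R26C was -1.78 ± 0.20 (adjusted p = 0.000852) and was called under all 20 alternatives.

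Zdbf2, expressed from the paternal copy (chr1:63273265-63314576), sat at the end of a long domain. In the shared H3WT list a peak ran from 30.26 kb to 0.12 kb before the start and others from 1.49 to 10.69 kb and from 20.49 to 22.54 kb after it. In H3WT replicate 3 a single peak of 39.1 kb ran across the start. Within the 30 kb before the start 99.6% and 100.0% was covered in H3WT, 99.5% and 100.0% in H3R8C, 92.3% in H3R17C and 100.0% in both H3R26C lists, against 86.8% and 65.3% in H3R2C. In H3R2C the domain was broken at the CpG-rich start shown above: the nearest peak edge was 1.86 and 1.81 kb away and the start window was empty, whereas it was 44.3% and 100.0% covered in H3WT.

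Scaled signal over Zdbf2 itself was 1.17 and 1.5 in H3WT, 0.590 and 0.229 in H3R2C, 1.07 and 1.85 in H3R8C, 1.02 in H3R17C and 1.95 and 3.75 in H3R26C. H3R2C lay below and H3R26C above H3WT without overlap. The log2 difference was -1.31 ± 0.41 in H3R2C (adjusted p = 0.0458), a call that held under only 7 of 20 alternatives and was lost when any 1 of the 8 lists was left out (adjusted p 0.0557 to 0.274, the highest without H3R2C replicate 3). With whole peaks that touch the start window summed, the H3R2C difference was -4.10 (adjusted p = 0.000698). That sum takes in the long domain before the start, whose peaks in H3R2C stop short of the window. Over the gene and 1 kb on each side the log2 difference in H3R26C was 0.91 ± 0.41 (adjusted p = 0.186), which did not pass. H3R2C differed from H3R26C by -2.22 ± 0.41 (adjusted p = 0.00508).

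Gnas, which codes for the stimulatory G-protein alpha subunit and has several imprinted starts (chr2:174284320-174346744), was marked only near its first start, the maternally expressed Nesp end. No list had a peak within 1 kb of the other 3 RefSeq starts. The first start window was 0% and 100.0% covered in H3WT, 91.5% and 61.0% in H3R8C, 76.5% in H3R17C, 63.5% and 91.0% in H3R26C and 0% in both H3R2C lists. In the shared H3WT list the peak lay 2.73 to 5.23 kb after the start, so the H3WT lists did not share a start-site peak. Scaled signal was 0.173 and 0.410 in H3WT, 0.212 and 0.379 in H3R8C, 0.473 in H3R17C, 0.273 and 0.409 in H3R26C and 0 in both H3R2C lists, whose nearest peak was 80.7 and 80.0 kb away. The H3R2C lists were the only ones at 0. A single block at their level would have had a scaled signal of 0.119 and 0.134, not far below the 0.173 of the shared H3WT list. A partial fall could thus also read as 0. The log2 difference of H3R2C from H3WT was -1.08 ± 0.29 (adjusted p = 0.0293). It was called under 11 of 20 alternatives, and adjusted p was 0.105 without H3WT replicate 3, 0.125 without H3R2C replicate 3, 0.130 without the shared H3R2C list, 0.0505 without the shared H3R8C list and 0.050 without the shared H3R26C list. The antisense RNA Nespas overlaps this stretch and its signal cannot be told apart from that of Gnas.

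**Figure D3:**
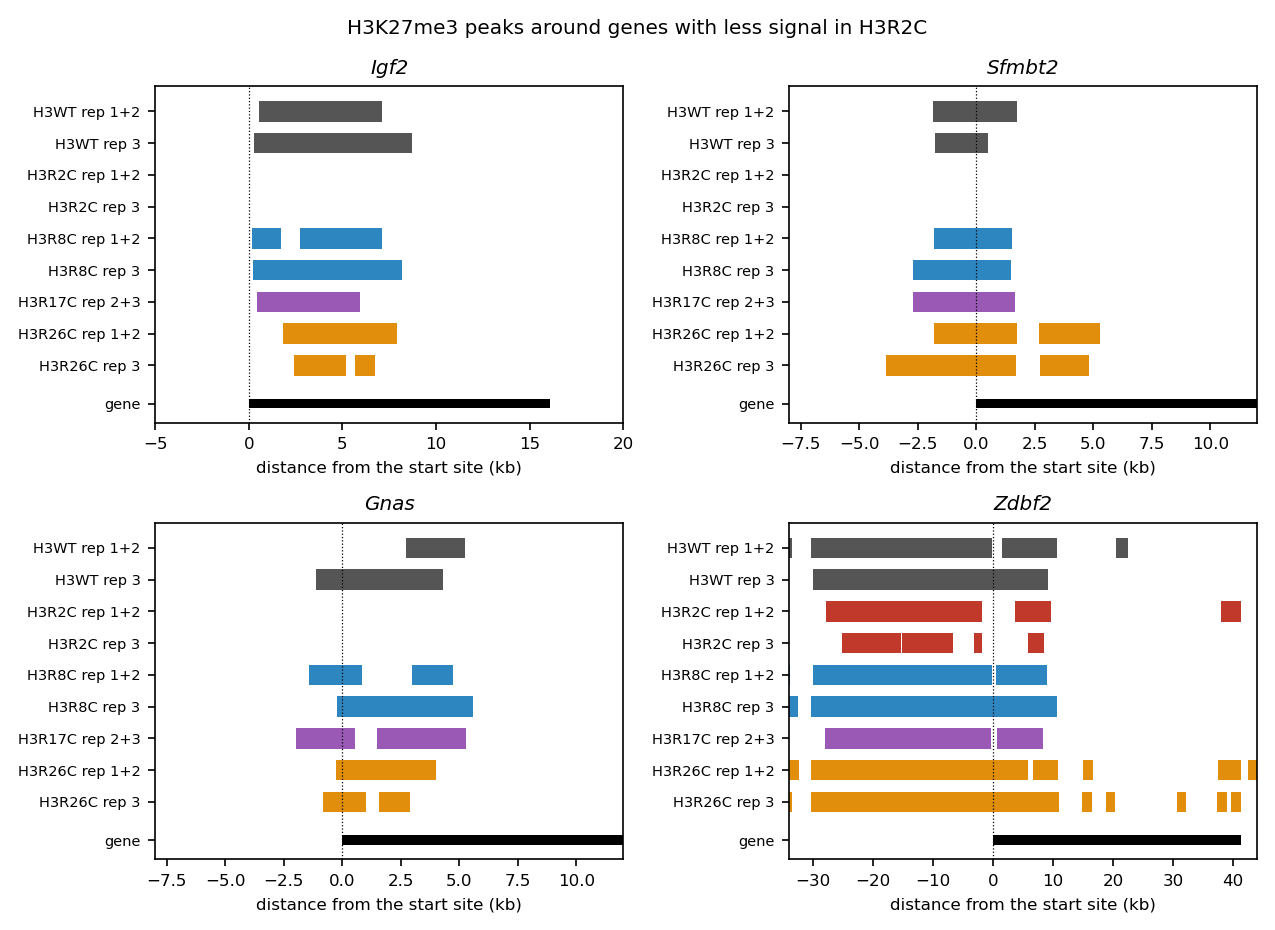
H3K27me3 peaks (bars, coloured by line) in 9 lists around Igf2, Sfmbt2, Gnas and Zdbf2, by distance from the first start site in kb, with the gene as a black bar. Within the span plotted the rows of both H3R2C lists are empty at Igf2, Sfmbt2 and Gnas, and at Zdbf2 the H3R2C peaks before the start stop 1.86 and 1.81 kb short of it.

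Slc22a18, a maternally expressed transporter gene next to Phlda2 (chr7:143473736-143499334), moved the other way. Its scaled signal was 0 in both H3WT lists, 1.1 and 0.949 in H3R2C, 0.120 and 0.281 in H3R8C, 0.127 in H3R17C and 0.103 and 0 in H3R26C. Both H3R2C lists were above every other list. They had a peak from 15.46 kb after the start to 20.41 and 19.56 kb, where the lists of other lines with signal had their only peak in the gene, and a further peak at 9.12 to 14.51 and 11.12 to 14.16 kb. Only the shared H3R2C list also had a peak over the start whose upstream sequence, shown above, holds 0 CpGs, from 5.68 kb before to 0.71 kb after it. The log2 difference from H3WT was 2.35 ± 0.27 (adjusted p = 0.00133) and was called under all 19 alternatives in which it could be fitted (adjusted p 1.04e-06 to 0.0347). With H3WT at 0 the size depends on the pseudocount, from 1.02 with 1 to 4.42 with 0.05. A single block at the level of the H3WT lists would have had a scaled signal of 0.106 and 0.105. In H3R8C the log2 difference was 0.83 ± 0.27 (adjusted p = 0.191).

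Kcnq1, the maternally expressed potassium channel gene whose intron holds the start of Kcnq1ot1 (chr7:143106362-143427042), kept the peak over its start in all 9 lists, 4.50 to 11.6 kb wide. Inside the gene the peaks stood in other places in H3R2C. Between 100 and 150 kb from the start, 43.8% and 31.8% was covered in H3WT, 49.2% and 55.2% in H3R8C, 27.4% in H3R17C and 44.4% and 9.60% in H3R26C, but only 9.50% and 0% in H3R2C. Between 50 and 100 kb the cover was 50.2% and 24.6% in H3R2C and 6.90% to 22% in the other 7 lists, and between 200 and 250 kb it was 40.9% and 22.2% in H3R2C and 3.40% to 17.1% in the others. H3R2C did not overlap the other lines in these 3 bins, though in the first H3R26C replicate 3 lay only just above the shared H3R2C list. These bins were described after their values were seen and were not tested.

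Summed over the whole gene the opposite moves left Kcnq1 with a scaled signal of 5.99 and 4.45 in H3R2C, 3.29 and 2.61 in H3WT, 4.16 and 4.41 in H3R8C, 4.11 in H3R17C and 3.09 and 1.71 in H3R26C. The log2 difference of H3R2C from H3WT was 0.77 ± 0.28 (adjusted p = 0.0751), which did not pass, and the difference from H3R26C was 1.08 ± 0.28 (adjusted p = 0.0186). The latter call was lost without H3R26C replicate 3 (0.60, adjusted p = 0.119), either H3R2C list (0.0563 and 0.132) or either H3R8C list (0.0520 and 0.0525). With the highest signal of the peaks in place of their sum the sign turned in both comparisons (-0.14 and -0.21). Kcnq1ot1, the paternal antisense RNA inside Kcnq1, overlaps that gene and its signal cannot be told apart from it, and it was named here after its values were seen. Its scaled signal was 2.16 and 1.05 in H3WT, 2.22 and 2.33 in H3R8C, 1.83 in H3R17C, 1.63 and 0.554 in H3R26C, and 0.293 and 0 in H3R2C.

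Ascl2, a maternally expressed transcription factor gene needed in the placenta (chr7:142966829-142969264), was wholly covered in all 7 lists outside H3R2C, by a peak of 7.50 to 11.4 kb. In H3R2C the peak was split near the start site, with a gap from 0.36 to 0.91 kb after it in the shared list and from 0.29 kb before to 1.41 kb after it in replicate 3, and 77.4% and 42.0% of the gene was covered. Scaled signal was 0.335 and 0.344 in H3R2C, 0.632 and 0.689 in H3WT, 0.907 and 0.754 in H3R8C, 0.787 in H3R17C and 0.538 and 0.826 in H3R26C. The H3R2C lists were the lowest of the 9. The log2 difference from H3WT was -0.63 ± 0.21 (adjusted p = 0.0581), just outside the threshold, and that from H3R26C was -0.64 ± 0.21 (adjusted p = 0.0427), a call kept under only 8 of 20 alternatives. It was lost when any 1 list of H3R2C, H3WT or H3R8C was left out (adjusted p 0.0613 to 0.131) and without H3R26C replicate 3 (0.0870).

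Phlda2, a maternally expressed gene that limits placental growth (chr7:143501545-143503150), had a peak of 1.45 to 2.10 kb over its start in H3WT replicate 3, both H3R8C lists and the shared H3R26C list, and none in the other 5. Its scaled signal where marked was 0.102 to 0.139, close to the scaled level of the lowest peak of the 9 lists (0.0872 to 0.134), and no difference from H3WT passed (adjusted p 0.407 to 1.00). Taken over the whole cluster interval (chr7:142575529-143503150), H3K27me3 peaks covered 18.0% and 20.7% in H3WT, 29.8% and 19.8% in H3R2C, 20.1% and 26.4% in H3R8C, 19.2% in H3R17C and 15.9% and 8.10% in H3R26C. The 4 lists of H3R2C and H3R26C averaged 18.4% ± 9.03 and the 4 of H3WT and H3R8C averaged 21.3% ± 3.59 (SD), a difference of -2.89 percentage points by a two-sided exact permutation test (p = 0.543, adjusted over 6 clusters 0.720). The smallest p this test can give is 0.0286.

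**Figure D4:**
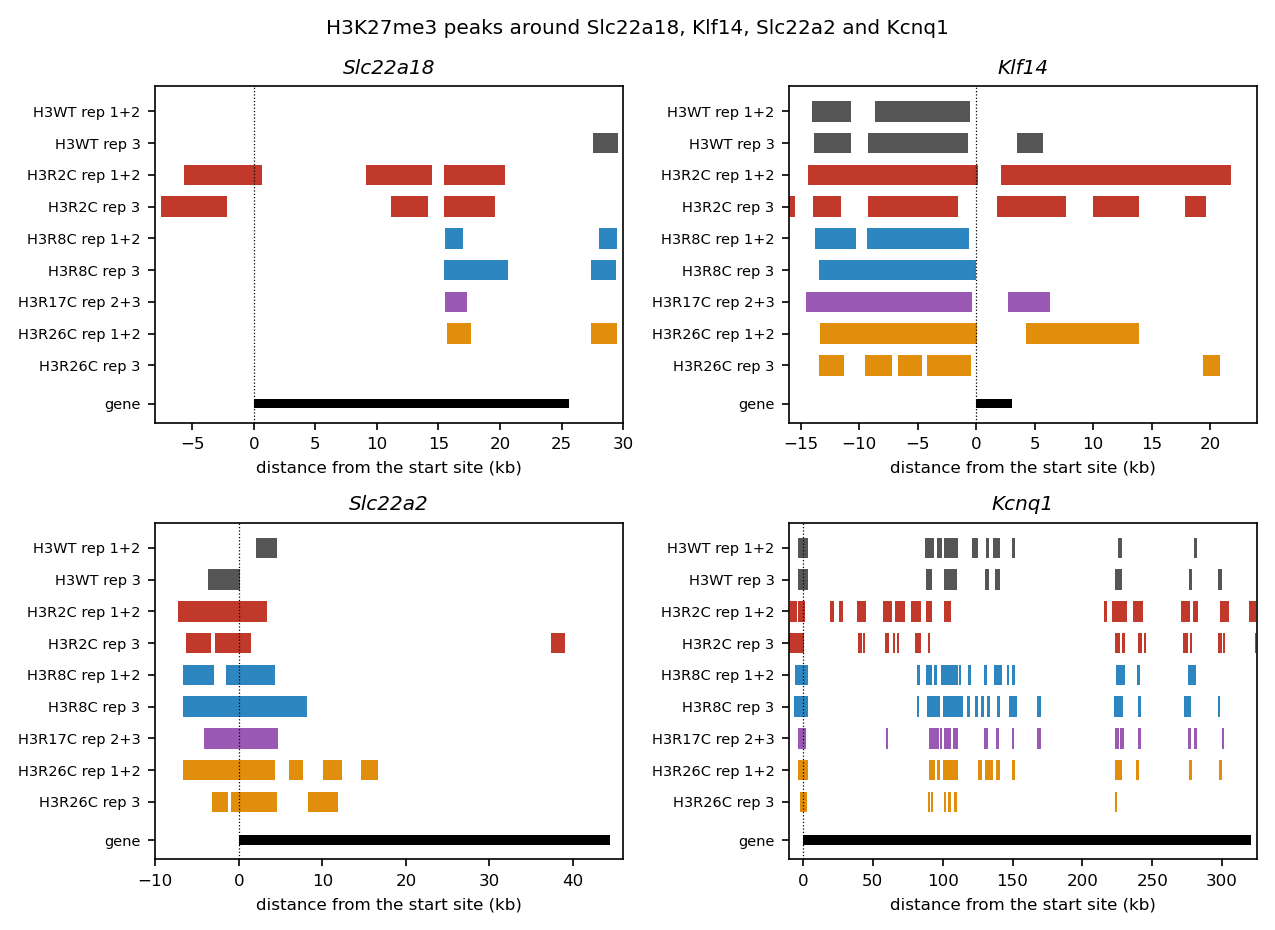
H3K27me3 peaks (bars, coloured by line) in 9 lists around Slc22a18, Klf14, Slc22a2 and Kcnq1, by distance from the start site in kb, with the gene as a black bar. At Slc22a18 both H3R2C lists have peaks from 9.12 and 11.12 kb on, and at Kcnq1 the H3R2C peaks fall mostly on either side of the stretch between 100 and 150 kb that is marked in the other lines.

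In the Igf2r cluster the long non-coding RNA Airn starts inside Igf2r and silences Slc22a2 and Slc22a3, genes for organic cation transporters, on the paternal copy in the placenta. Slc22a3 (chr17:12418960-12507704) had the strongest H3K27me3 of the 40 genes. Peaks covered 89.4% and 91.0% of it in H3WT, 91.0% and 81.0% in H3R2C, 86.6% and 92.2% in H3R8C, 82.9% in H3R17C and 83.2% and 74.7% in H3R26C. Its scaled signal was 12.7 and 12.5 in H3WT, 10.0 and 12.8 in H3R2C, 12.8 and 12.6 in H3R8C, 13 in H3R17C and 9.57 and 12.7 in H3R26C, with all lines overlapping except H3R17C, whose single list was the highest. The log2 difference from H3WT was -0.15 ± 0.18 for H3R2C, -0.19 ± 0.18 for H3R26C and 0.01 ± 0.18 for H3R8C (adjusted p 0.583, 0.545 and 1.00).

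Slc22a2 (chr17:12584132-12628488) was weakest in H3WT. Its scaled signal was 0.138 and 0.0962 in H3WT, 0.381 and 0.494 in H3R2C, 0.364 and 0.650 in H3R8C, 0.593 in H3R17C and 0.770 and 1.15 in H3R26C, so that each mutant list lay above both H3WT lists. The H3WT values lie close to the scaled level of the lowest peak in those lists, 0.106 and 0.105, so the size of the differences below is uncertain. Peaks that reached beyond 1 kb before the start were counted only in part. In H3WT replicate 3 the peak ran from 3.73 kb before to 0.17 kb after the start. The start window was 0% and 58.4% covered in H3WT and 96.6% to 100.0% in the other 7 lists. The log2 difference was 1.70 ± 0.28 in H3R26C (adjusted p = 0.0109), 0.90 ± 0.28 in H3R2C (adjusted p = 0.0440) and 1.02 ± 0.28 in H3R8C (adjusted p = 0.120). The H3R2C call was kept under 6 of 20 alternatives and lost when any 1 list was left out (adjusted p 0.0523 to 0.165), and the H3R26C call was lost without H3R26C replicate 3 (0.0530) or H3WT replicate 3 (0.0558). Over the cluster interval (chr17:12418960-12769664) the means of the same 4 and 4 lists were 37.2% ± 6.05 and 34.7% ± 3.02 (SD), which did not pass either (exact permutation p = 0.543, adjusted 0.720).

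**Figure D5:**
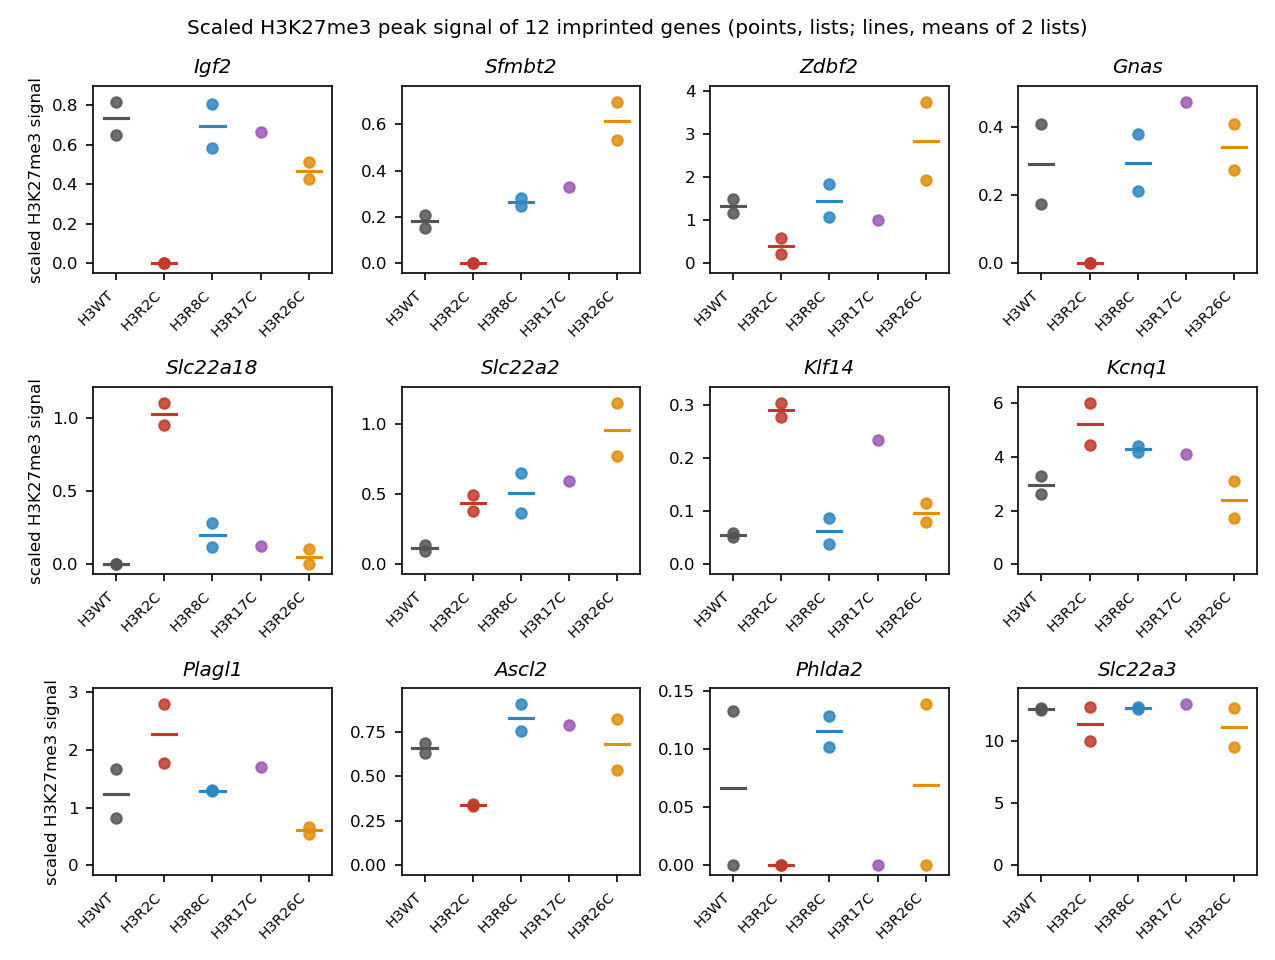
Scaled H3K27me3 signal (y axis, on a linear scale that differs between panels) of 12 imprinted genes in each peak list (points), by line, with the mean of 2 lists as a bar. Both H3R2C points lie at 0 for Igf2, Sfmbt2 and Gnas and above all others for Slc22a18, and the points of Slc22a3 lie between 9.57 and 13.

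Klf14 and Plagl1, transcription factor genes outside the large clusters, had their highest signal in H3R2C, and of the pair Klf14 passed the test against H3WT. Klf14 (chr6:30956023-30959078) lies beside a domain upstream of its start. In the 10 kb before the start 81.0% and 86.0% was covered in H3WT and 77.5% to 100.0% in the other lists, while 0% of the gene was covered in both H3WT and both H3R8C lists. In H3R2C 37.8% and 41.8% of the gene was covered, by peaks that began 2.08 and 1.78 kb after the start, against 2.55% and 0% in H3R26C and 12.4% in H3R17C. The upstream peak reached into the start window in every list but H3R2C replicate 3, where it stopped 1.52 kb short of the start. Scaled signal was 0.0516 and 0.0583 in H3WT, 0.277 and 0.303 in H3R2C, 0.0392 and 0.0869 in H3R8C, 0.234 in H3R17C and 0.115 and 0.0799 in H3R26C. In H3WT it came only from the 1 kb on each side of the gene and lay below the level of the lowest peak in those lists (0.106 and 0.105). The log2 difference of H3R2C from H3WT was 0.82 ± 0.15 (adjusted p = 0.00681) and was called under 17 of 20 alternatives. With whole peaks that touch the start window summed, it turned to -0.45 (adjusted p = 0.737). The call was also lost on the highest signal (0.19, adjusted p = 0.522) and on signal as deposited (0.75, adjusted p = 0.123).

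Plagl1 (chr10:13060504-13131694), which codes for a zinc-finger regulator of growth, had a peak over its first start in all lists but H3R2C replicate 3, where the nearest peak was 9.95 kb away. Further peaks lay along the gene, which was 28.6% and 12.1% covered in H3WT, 52.3% and 21.9% in H3R2C and 9.12% and 6.95% in H3R26C. Scaled signal was 1.67 and 0.816 in H3WT, 2.79 and 1.77 in H3R2C, 1.28 and 1.31 in H3R8C, 1.70 in H3R17C and 0.548 and 0.660 in H3R26C. Against H3WT neither mutant passed, with 0.79 ± 0.32 in H3R2C (adjusted p = 0.10) and -0.75 ± 0.32 in H3R26C (adjusted p = 0.168). H3R2C differed from H3R26C by 1.54 ± 0.32 (adjusted p = 0.00816), lost without the shared H3R2C list (0.0704) or either H3R26C list (0.0564 and 0.0596).

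The other 4 genes with signal were marked in few lists. Grb10, which codes for a growth-restraining adaptor, had small intragenic peaks in both H3R8C lists alone (scaled signal 0.0987 and 0.239) and 0 in the other 7. It passed the filter through H3R8C alone, so its difference from H3WT is given no test. Dio3, which inactivates thyroid hormone, had signal in H3WT replicate 3, both H3R8C lists and H3R26C replicate 3 (0.128 to 0.192) and 0 in the rest. Meg3, a long non-coding RNA, had a peak in the shared H3R2C list alone (0.135), and Magel2, a ubiquitin ligase regulator, in the shared H3R26C list alone (0.0796). The Dlk1-Meg3 and Snrpn intervals were covered by at most 2.41% and 0.782%. Neither passed the test of H3R2C with H3R26C against H3WT with H3R8C (exact permutation p = 0.600 and 0.429, adjusted 0.720 in both), and the Gnas interval, with 2.53% ± 3.11 and 5.98% ± 2.37 (SD, n = 4 each), did not pass either (exact permutation p = 0.114, adjusted 0.686).

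The HA-tagged histone gave few peaks at these starts. In the 10 HA lists, 0% to 12.5% of the 40 genes had an HA peak within 1 kb of the start. Over all genes it was 8.06% to 18.9%, above the share of the 40 in each list. Only Mest, a paternally expressed hydrolase gene, had an HA start-site peak in both lists of a line. That line was H3WT, with 100.0% and 12.7% of the start window covered, where 9.13% of all genes had a start-site peak in both lists. In H3R2C, H3R8C, H3R17C and H3R26C the number was 0 of 40, beside 6.48%, 4.91%, 3.45% and 6.05% of all genes. On the gene itself HA peaks were more common, with 24 of the 40 having one in at least 1 list. In each list 7 to 17 of the 40 had one, where 25.5% to 36.7% of all genes did. Igf2r, Ddc and Trappc9 had one in all 10 lists. Igf2, Gnas and Zdbf2 had no HA peak on the gene in any list, and Sfmbt2 had one in H3R2C replicate 3 alone (2.49% of the gene). The HA lists of H3WT stood apart, with median peak widths of 10.7 and 2.65 kb against 0.800 to 1.60 kb in the mutants, and they covered 40.9% and 13.6% of the Igf2r cluster against 1.82% to 10.7% in the mutant lists. HA levels were therefore not compared between H3WT and the mutants.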

How the data were processed

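CUT&RUN peak lists of 29 of the 60 samples were used, and the other 31 samples were not analysed here. The authors aligned the reads to mm10 and called peaks with SEACR 1.3 at a numeric threshold of 0.01. Each deposited list gives the position of every peak with its total signal (coverage summed over the peak) and its highest signal, and the values are neither counts nor scaled between lists. A peak list does not hold read counts, and the read totals that the study gives for its libraries did not enter any step, so values carry no counting interval.

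Within each group 2 of 3 labelled replicates had identical lists and were counted once, which left 9 H3K27me3 and 10 HA lists. The study calls its replicates independent, but its read totals differ between replicates that share a list, so whether a shared list was called on merged reads or stands in for a replicate is not known. P-values measure only the spread between the lists. The H3K27me3 list of H3R17C replicate 1 was left out because its name gives another mark, and H3R17C, with 1 list, entered no test. Genes were taken from GENCODE M21. Signal was summed over each gene and 1 kb on each side and divided by the list's median over 2697 genes with signal in all 8 lists of the 4 tested lines. limma 3.58.1 (R 4.3.3) was fitted to log2(scaled signal + 0.25) of 6212 genes, with Benjamini-Hochberg adjustment and a threshold of 0.05, and was tested on simulated data. Cluster cover was compared by a two-sided exact permutation test (scipy 1.17.1), and tables were handled with Python 3.11.15, numpy 2.4.6 and pandas 2.3.3. Promoters of 32 of the 40 members matched RefSeq (GRCm38.p6), and those of H19, Cdkn1c, Kcnq1, Rtl1, Klf14, Impact, Kcnk9 and Trappc9 are named only.

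The members and the gene lists were chosen with earlier results of these data known. Values in every list are given for members with a start-site peak in every list of a line or past the threshold in a comparison, and the other members are given by counts and ranges. Alternatives changed the pseudocount, the filter, the scaling, the signal measure, the window, the peaks used and the variance trend. They also changed the replicate block, the treatment of identical lists, the addition of H3R17C, and each list in turn. The start-window alternative summed the whole signal of every peak that touched the window 1 kb on each side of the start.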

Additional observations from a re-analysis of the deposited data

Results flagged for a closer look

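The change against H3WT differed between H3R2C and H3R26C for 9 members by a direct test of the difference (limma, Benjamini-Hochberg adjustment over 6212 genes), and both changes share the H3WT lists. On the log2 scale, as H3R2C minus H3R26C, the difference was -1.78 for Sfmbt2 (adjusted p = 0.000852), -1.52 for Igf2 (0.00205), -2.22 for Zdbf2 (0.00508), -1.23 for Gnas (0.0133) and -0.64 for Ascl2 (0.0427). It was 2.10 for Slc22a18 (0.00134), 1.54 for Plagl1 (0.00816), 0.64 for Klf14 (0.0124) and 1.08 for Kcnq1 (0.0186). Of all genes tested, 22.3% were called lower and 26.1% higher in this comparison. The lists of H3R2C replicate 3 and H3R26C replicate 3 covered 77.0 and 64.2 Mb, less than the other 7, and the part of this in the differences was not tested.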

How the results depend on the processing

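Each line had 2 independent lists, so a single list can decide a call, and weak peaks near the level of the lowest peak come and go between lists. In the following, counts are given as lower and higher. With identical lists counted as separate replicates (all 3 labelled), calls in H3R2C against H3WT rose from 1020 and 1236 to 1625 and 1992, in H3R26C from 564 and 509 to 1208 and 1331 (5 members), in H3R8C from 127 and 126 to 647 and 622 (3 members), and for H3R2C with H3R26C against H3WT with H3R8C from 46 and 43 to 447 and 584 (2 members). These counts take copies for replicates. On signal as deposited they were 446 and 493 (2 members), 46 and 45 (0 members), 28 and 62, and 12 and 0 in the same order, and 568 and 798 (3 members) for H3R2C against H3R26C. With whole peaks that touch the start window summed (11 members tested) they were 644 and 475 (3 members), 151 and 203 (0 members), 52 and 78, and 4 and 1. In that setting 664 genes were higher for H3R2C against H3R26C (2 members). On the highest signal H3R2C had 663 higher, H3R26C 322 and 273 (0 members), H3R8C 1 member, and H3R2C against H3R26C 966 higher and 4 members. With the upper 50% of peaks 4 of 11 members tested were called in H3R2C (33.6% of all 4783 genes tested) and 1 in H3R26C (16.1%). A pseudocount of 1 left 3 members in H3R2C and 26 higher genes in the pooled comparison. A pseudocount of 0.05 gave 1 member in H3R8C and 80 higher genes pooled. Wherever a member was called in H3R8C, here or with 1 list left out, Grb10 was among those called. Grb10 passed the filter through H3R8C alone and is given no test. Without a filter the pooled counts were 18 and 13, and without a variance trend H3R8C had 81 higher. H3WT had 5 members with at least 50% of the start window covered in every list (6.36% of all genes), and H3R2C had 7 with a peak in at least 2 of the 3 labelled replicates (9.93% of all genes).

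The sign turned for Klf14 with whole peaks that touch the start window summed (-0.45 against H3WT, -0.65 against H3R26C and -0.19 pooled). It also turned for Klf14 on the highest signal (-0.02 against H3R26C). In the same start-window setting it turned for Plagl1 (-0.76 in H3R2C against H3WT and -0.23 against H3R26C). It turned for Kcnq1 on the highest signal (-0.14 and -0.21). For Slc22a2 it turned in H3R2C against H3R26C (0.16 on the highest signal and 0.02 in the start-window setting). The Dlk1-Meg3 cover difference was 0.0455 with all 3 labelled replicates. Where no construction is named, the cause was not tested.

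Leaving out 1 list at a time gave 601 to 1055 lower and 757 to 1144 higher genes in H3R2C (3 to 6 members), 259 to 517 and 258 to 420 in H3R26C (0 to 2 members), 30 to 115 and 71 to 133 in H3R8C (0 to 1 member), 933 to 1366 and 1053 to 1531 in H3R2C against H3R26C (5 to 8 members), and 0 to 46 and 0 to 105 pooled (0 without H3R8C replicate 3). Within these ranges, H3R2C had 807 higher genes without its shared list. H3R26C had 345, 349 and 465 lower genes without the shared H3R8C list, the shared H3WT list and H3R2C replicate 3, and 289 and 388 higher genes without H3WT replicate 3 and H3R2C replicate 3. H3R8C had 61 and 32 lower genes without the shared H3WT list and H3R8C replicate 3, and the pooled comparison 14 without the shared H3R26C list. Start-site counts ran from 8 to 11 in H3WT, 4 to 7 in H3R2C, 11 to 12 in H3R8C and 9 to 11 in H3R26C. Cluster cover differences ran from -6.69 to 0.545 (Kcnq1-Igf2) and from -0.567 to 0.0184 (Dlk1-Meg3), the higher value without H3R26C replicate 3 in both, and were -3.37 and -0.167 without H3R2C replicate 3.

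The deviations of lists with the same replicate number had r of 0.136 to 0.307 over 2697 genes in 4 of 6 pairs of lines and of -0.084 and -0.109 in the other 2. With 2 lists a line and no label that ties the numbers, they were not taken as pairs. With the replicate number as a block the pooled counts were 2 and 3, Zdbf2 in H3R2C had an adjusted p of 0.0522, Kcnq1 0.0376, and Ascl2 and Slc22a2 in H3R2C against H3R26C 0.0567 and 0.0434. The block changed no other member's call.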

Other observations

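Of 34 other imprinted genes measured, 13 were tested, and in H3R2C against H3WT 4 were called lower and 4 higher. Of all genes tested 16.4% were called lower and 19.9% higher, and a gene reached the test only through lines in which it had signal. Osbpl5 and Trpm5, both in the count of 4 higher, did so through H3R2C alone. Their scaled signal was 0.278 and 0.235, and 0.283 and 0.506, in the H3R2C lists and 0 in the other 7. Their difference is given no test, and the count of 4 higher is not to be set against the 19.9%. Th, which codes for tyrosine hydroxylase, was higher in H3R2C (2.24 and 3.19, against 0.106 and 0.277 in H3WT, log2 difference 2.76, limma adjusted p 0.00103), as was Snhg14 (1.16, adjusted p 0.0237). Lower were Begain (-0.94, adjusted p 0.0174), and Kcnq1ot1 (-2.26, adjusted p 0.0199) and Nespas (-1.09, adjusted p 0.0270), which overlap members. Pde10a, a phosphodiesterase gene, was also lower in H3R2C (-1.33, adjusted p 0.00648) and higher in H3R26C (1.11, adjusted p 0.0249). Of 10 Polycomb control genes 9 were tested and 7 were called lower in H3R2C, with a median log2 difference of -1.35, among them Foxa2 (-2.40) and Gata4 (-1.35).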
